A study of Homo sapiens with 6 samples.

Results

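The plasminogen activation system was followed through 5 genes in clones of KYSE150, an established line of human oesophageal squamous cell carcinoma. The genes were taken by their RefSeq symbols from a list of plasminogen activator, receptor and serpin genes, and all 5 were found among the 40448 gene IDs measured. The list held PLAU, PLAUR, PLAT, SERPINE2 and SERPINB2. Expression had been measured by sequencing of ribosomal RNA-depleted total RNA in 3 clones stably transfected with an NCCRP1 expression vector (NCCRP1 clones 1, 6 and 17) and in 3 clones carrying the empty pIRES2-EGFP vector (mock clones 1, 4 and 5). Each clone is a separately selected transfectant of the same line and gave 1 library. The p-values between groups therefore set a difference against the spread between clones, which limma draws towards that of other genes. The names of the deposited data carry the number 15 for NCCRP1 clone 1 and mock clones 1 and 4. They carry the number 14 for NCCRP1 clones 6 and 17 and mock clone 5. This number was taken here as the sequencing run, which the sample titles do not state.

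Plasminogen is a circulating zymogen that urokinase, encoded by PLAU, and tissue-type plasminogen activator, encoded by PLAT, cleave to the broad-acting protease plasmin. Urokinase is held at the cell surface by its receptor, a GPI-anchored protein of the Ly6/uPAR family encoded by PLAUR. Serpins stop the reaction by trapping the activators: SERPINE2 encodes protease nexin 1, and SERPINB2 encodes plasminogen activator inhibitor 2, a mostly intracellular serpin. In squamous epithelia and carcinomas the system is known for its part in wound closure, matrix breakdown and invasion.

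RefSeq (GRCh38.p14) gave promoter windows for 4 of the 5 genes, each reaching from 250 bases before a transcription start to 50 after it. Those of PLAU and PLAUR are shown because these 2 genes, of the enzyme and its receptor, had the highest mean levels of the 5, and that of SERPINB2 because it shares a motif with PLAUR although the gene was listed at 0 in every library. Capitals mark matches on either strand to TGANTCA, the letters searched for AP-1. They also mark GC boxes, searched as GGGCGG, and TATA boxes, searched as TATAAA.
PLAU, chr10:73910882-73911181, plus strand, the downstream one of 2 RefSeq starts: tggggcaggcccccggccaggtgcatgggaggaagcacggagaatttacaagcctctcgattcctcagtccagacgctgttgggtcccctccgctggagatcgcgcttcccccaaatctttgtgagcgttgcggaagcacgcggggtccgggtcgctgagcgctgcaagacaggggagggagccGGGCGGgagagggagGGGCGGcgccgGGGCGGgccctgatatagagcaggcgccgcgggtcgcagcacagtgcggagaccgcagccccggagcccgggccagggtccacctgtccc
PLAUR, chr19:43670120-43670419, minus strand: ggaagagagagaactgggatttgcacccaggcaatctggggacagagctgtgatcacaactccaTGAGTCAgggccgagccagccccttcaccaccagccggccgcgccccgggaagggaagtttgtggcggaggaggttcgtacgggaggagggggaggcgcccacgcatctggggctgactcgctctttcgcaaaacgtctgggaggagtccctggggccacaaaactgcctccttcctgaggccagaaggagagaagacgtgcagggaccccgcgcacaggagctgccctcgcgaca
SERPINB2, chr18:63887455-63887754, plus strand: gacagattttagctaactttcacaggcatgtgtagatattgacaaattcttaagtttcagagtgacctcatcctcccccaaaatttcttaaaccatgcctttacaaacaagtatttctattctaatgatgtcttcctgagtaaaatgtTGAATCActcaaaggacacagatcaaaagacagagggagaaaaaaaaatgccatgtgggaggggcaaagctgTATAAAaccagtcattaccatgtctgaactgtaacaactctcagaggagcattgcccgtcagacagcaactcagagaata
The PLAU window held 3 GC boxes, beginning 66, 51 and 40 bases before the start, and no AP-1 match. The upstream PLAU window, which is not printed, held no match to any of the 3 motifs. The PLAUR window held 1 AP-1 match, 186 bases before the start, and none of the other motifs. The SERPINB2 window held 1 AP-1 match at 102 bases and a TATA box at 30 bases before the start, and no matches overlapped. Over 35116 RefSeq windows of the same length, AP-1 letters were found in 7.71%, GC boxes in 45.0% and TATA boxes in 11.5%. These matches are descriptions of the sequence only.

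The transfected gene, NCCRP1, whose product carries a domain of the F-box-associated type, had values of 6.19, 8.07 and 6.71 in clones 1, 6 and 17 of the NCCRP1 group and was listed at 0 in each mock clone. These and the following levels are log2 RPKM, the logarithm of reads per kilobase of gene model, scaled to library size. A listed 0 stands for less than 1 RPKM or for no estimate, and it is given here as a listed value only. All 8 squamous markers were above 0 in every library, with a summed level of 1158 to 2400 RPKM in NCCRP1 clones and 1675 to 2068 RPKM in mock clones. Much of that sum was KRT5, at 744 to 1863 RPKM in NCCRP1 clones and 992 to 1310 RPKM in mock clones. Of the 8 markers, 6 averaged lower in the NCCRP1 clones and 0 passed; the median of the 8 log2 differences was -0.28. KRT14, a basal keratin gene, averaged 1.74 ± 0.58 log2 RPKM in NCCRP1 clones and 3.31 ± 1.17 in mock clones (SD, n = 3 each), with overlap (difference -1.57, SE 0.60, limma adjusted p = 0.631). The part of these markers in the results that follow was not tested. Of the markers of other cell types, 5 of 6 fibroblast, 4 of 5 endothelial and 4 of 5 macrophage genes were listed at 0 in every library. The exceptions were COL1A1, at most 2.57 on the log2 scale, CSF1R, at most 2.43, and CDH5, at 0.66 in NCCRP1 clone 6 alone. In bulk RNA, fewer cells of a type and less RNA per cell cannot be told apart.

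The 3 genes that were above 0 in every library, PLAU, PLAUR and PLAT, all had a higher mean in NCCRP1 clones, but none passed the test. At an adjusted p under 0.05, limma called 0 of these 3, against 0.102% of the 12737 genes tested (1 of the 3, PLAU, had an unadjusted p under 0.05, against 7.33% of all genes). The receptor gene PLAUR varied most between clones of the same kind. SERPINE2 was above 0 in the mock clones alone, and SERPINB2 in no clone.

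**Figure D1:**
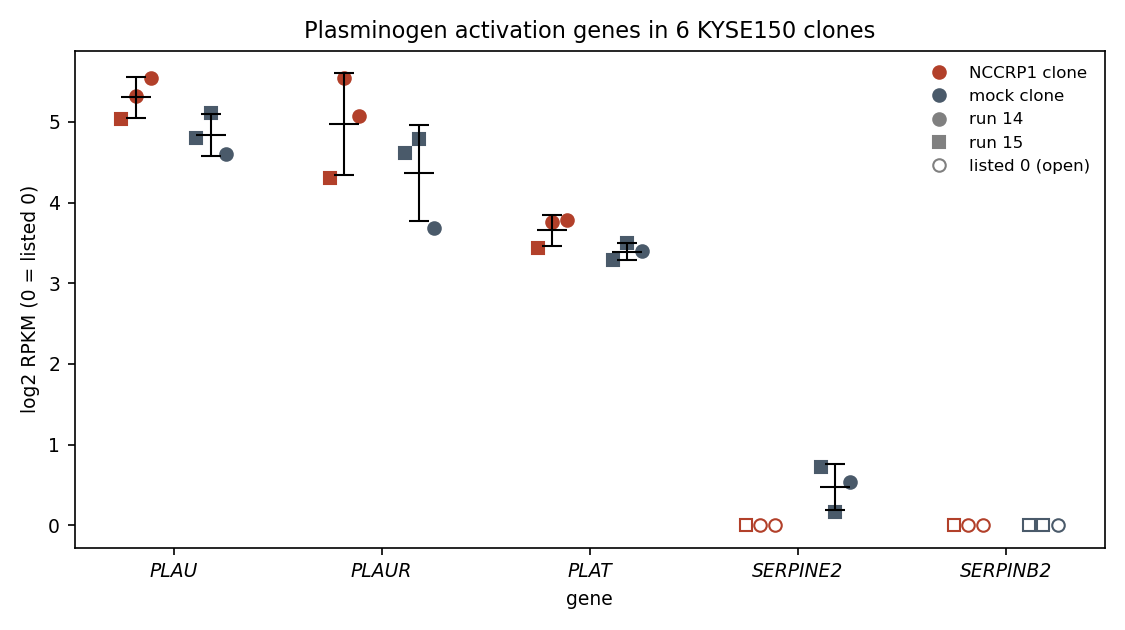
Log2 RPKM (y axis) of the 5 genes (x axis) in each clone, NCCRP1 clones in red on the left and mock clones in grey on the right of each pair. Circles are run 14 and squares run 15, open symbols are a listed 0, and black bars are mean and SD (n = 3). The red and grey ranges of PLAU, PLAUR and PLAT overlap, and SERPINE2 lies above 0 in mock clones alone.

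PLAU, the urokinase gene (Entrez 5328), was the most abundant of the 5 by mean level. It stood at 5.04, 5.32 and 5.55 log2 RPKM in NCCRP1 clones 1, 6 and 17, compared with 4.80, 5.11 and 4.60 in mock clones 1, 4 and 5. In linear units these are 32.9, 40.0 and 46.9 RPKM in the NCCRP1 clones and 27.9, 34.6 and 24.3 RPKM in mock clones. NCCRP1 clones 6 and 17 lay above every mock clone, whereas NCCRP1 clone 1 lay between mock clones 1 and 4, so the groups overlapped. The means were 5.30 ± 0.26 in NCCRP1 clones and 4.84 ± 0.26 in mock clones (SD, n = 3 each). The log2 difference was 0.46 (SE 0.18, 95% interval 0.07 to 0.86), or 1.38-fold with an interval of 1.05 to 1.81, at an unadjusted limma p of 0.0253 and an adjusted p of 0.571. The exact two-sided permutation test of the 3 against 3 clones gave p = 0.2, where 0.1 is the smallest value the design allows.

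The PLAU difference was not the same in size in both runs. It was 0.83 within run 14 (5.44 in NCCRP1 clones 6 and 17, 4.60 in mock clone 5) and 0.08 within run 15 (5.04 in NCCRP1 clone 1, 4.96 in mock clones 1 and 4). Each run holds 1 clone of one of the groups, so clone and run cannot be told apart, and the difference between the runs was not tested. PLAU exceeded 72.3% to 85.4% of the genes listed above 0 across the 6 libraries.

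PLAUR, the urokinase receptor gene (Entrez 5329), was at 4.30, 5.55 and 5.07 log2 RPKM in NCCRP1 clones 1, 6 and 17 and at 4.62, 4.79 and 3.68 in mock clones 1, 4 and 5. That is 19.7, 46.7 and 33.6 RPKM in NCCRP1 clones against 24.6, 27.6 and 12.8 RPKM in mock clones. NCCRP1 clone 6 was the highest and mock clone 5 the lowest of the 6, and NCCRP1 clone 1 was lower than mock clones 1 and 4. The range within a group was 1.25 in NCCRP1 clones and 1.11 in mock clones on the log2 scale, wider than the difference between the group means. Those means were 4.97 ± 0.63 in NCCRP1 clones and 4.36 ± 0.60 in mock clones (SD, n = 3 each). The difference of 0.61 (SE 0.38, 95% interval -0.26 to 1.48) had a limma adjusted p of 0.825 and an exact permutation p of 0.4. In fold terms it was 1.52 with an interval of 0.833 to 2.79.

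The direction of PLAUR turned between the runs: the difference was 1.63 within run 14 (5.31 in NCCRP1 clones 6 and 17, 3.68 in mock clone 5) and -0.41 within run 15 (4.30 in NCCRP1 clone 1, 4.70 in mock clones 1 and 4). Single clones also moved its size, to 0.27 without mock clone 5, to 0.32 without NCCRP1 clone 6 and to 0.95 without NCCRP1 clone 1.

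PLAT, the gene of tissue-type plasminogen activator (Entrez 5327), was lower and more even than the urokinase genes. It was at 3.44, 3.76 and 3.79 log2 RPKM in NCCRP1 clones 1, 6 and 17, compared with 3.28, 3.50 and 3.40 in mock clones 1, 4 and 5, or 10.8, 13.5 and 13.8 RPKM in NCCRP1 clones and 9.75, 11.3 and 10.5 RPKM in mock clones. The highest values were those of NCCRP1 clones 6 and 17, and mock clone 4 was above NCCRP1 clone 1. The means were 3.66 ± 0.19 in NCCRP1 clones and 3.39 ± 0.11 in mock clones (SD, n = 3 each). The log2 difference of 0.27 (SE 0.16, 95% interval -0.08 to 0.62), a fold of 1.20 with an interval of 0.944 to 1.53, had a limma adjusted p of 0.799 and an exact permutation p of 0.2. It was 0.37 within run 14 (3.77 in NCCRP1 clones 6 and 17, 3.40 in mock clone 5) and 0.05 within run 15 (3.44 in NCCRP1 clone 1, 3.39 in mock clones 1 and 4).

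SERPINE2, the protease nexin 1 gene (Entrez 5270), was listed at 0 in NCCRP1 clones 1, 6 and 17, and stood at 0.72, 0.16 and 0.54 log2 RPKM in mock clones 1, 4 and 5, or 1.65, 1.12 and 1.45 RPKM. The groups did not overlap, as for 7.05% of all tested genes in the direction of lower NCCRP1 values. All mock values lay close to the 1 RPKM floor, above 1.5% to 7.0% of the genes listed above 0 in the same libraries. The gene met the filter of 3 libraries above 0 through the mock clones alone, so no test is read from it, and no fold is given against a listed 0. SERPINB2, the plasminogen activator inhibitor 2 gene (Entrez 5055), was listed at 0 in all 6 libraries and was not tested.

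RPKM is scaled to gene length, so levels of different genes were also set side by side. The gene lengths that the submitters used are not known, so these distances between genes are approximate. PLAU lay above PLAUR in 2 of 3 NCCRP1 clones and in 3 of 3 mock clones, by a log2 difference in level of 0.33 ± 0.50 in NCCRP1 clones and 0.47 ± 0.39 in mock clones (SD, n = 3 each). These neighbours in the order thus did not differ beyond their spread in the NCCRP1 clones, and in clone 6 PLAUR was the higher one. PLAUR lay above PLAT in all 6 clones, by 1.31 ± 0.47 in NCCRP1 clones and 0.97 ± 0.59 in mock clones. The 2 activators kept a steadier distance: PLAU lay above PLAT by 1.64 ± 0.11 in NCCRP1 clones and 1.45 ± 0.22 in mock clones, which is 3.03, 2.96 and 3.40 times in NCCRP1 clones 1, 6 and 17 and 2.86, 3.07 and 2.30 times in mock clones 1, 4 and 5.

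Over the 6 clones, r was positive for each pair of the 3 expressed genes. PLAU and PLAT had Pearson's r = 0.894 and Spearman's rho = 0.943 (exact permutation p of 0.0222 and 0.0167, adjusted 0.0667 and 0.05 over the 3 pairs compared). PLAU and PLAUR had r = 0.823 and rho = 0.886 (exact permutation p of 0.0472 and 0.0333, adjusted 0.0708 and 0.05). PLAUR and PLAT had r = 0.732 and rho = 0.771 (exact permutation p of 0.0833 and 0.103, adjusted 0.0833 and 0.103). No pair had an adjusted p below 0.05. Without the 2 clones farthest from the median of the first gene, r was 0.981 for PLAU and PLAT, 0.737 for PLAU and PLAUR and 0.728 for PLAUR and PLAT, over 4 clones. With each group's mean removed first, r was 0.770, 0.764 and 0.603 in the same order of pairs. With each run's mean removed instead, a value added after the others were known, r was 0.977, 0.820 and 0.831 in that order.

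**Figure D2:**
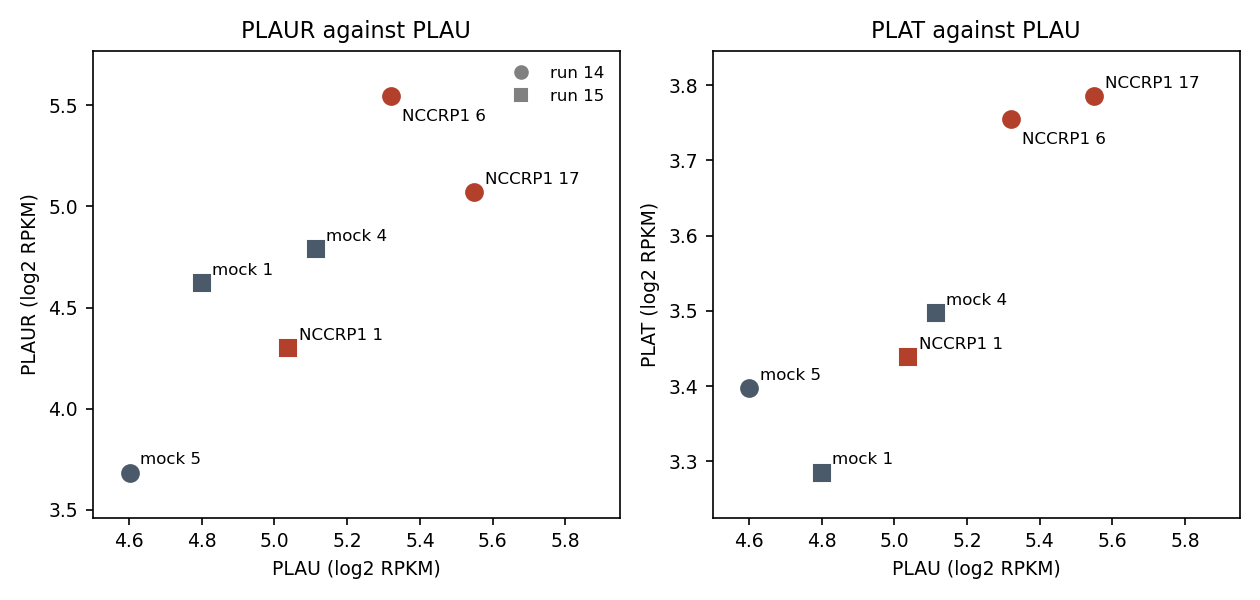
PLAUR (left) and PLAT (right) on the y axes against PLAU on the x axes, all in log2 RPKM, with 1 point for each of the 6 clones; NCCRP1 clones are red, mock clones grey, circles run 14 and squares run 15. NCCRP1 clones 6 and 17 lie at the upper right of both panels, and NCCRP1 clone 1 lies among the mock clones.

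The genes whose levels followed each member most closely were taken as the 3 highest Pearson correlations over the 6 libraries, among protein-coding genes above 0 in every library, with a mean of at least 2 and a range of at least 1 on the log2 scale. With 6 libraries and 781 or 782 genes searched for each member, high values are common: 44 genes had r above 0.9 with PLAU, 31 with PLAUR and 42 with PLAT. For PLAU the likest genes included the chemokine gene CCL5 (r = 0.979) and the cytokine gene LIF (r = 0.975). CCL5 was at 3.19, 4.58 and 5.11 log2 RPKM in NCCRP1 clones 1, 6 and 17 and at 3.07, 3.63 and 2.23 in mock clones 1, 4 and 5, with all 6 clones in the same order as for PLAU. For PLAUR they were the follistatin-like gene FSTL3 (r = 0.987), the small MAF gene MAFF (r = 0.981) and ANKRD33B (r = 0.975). For PLAT they were the apolipoprotein L gene APOL2 (r = 0.991), CD274, which encodes the PD-1 ligand 1 (r = 0.986), and the autophagy modulator gene DRAM1 (r = 0.984). SERPINE2 was listed at 0 in every NCCRP1 clone, so its r rests on the group split and 3 low mock values, and nothing is read from it. Its highest r were with the histone genes H2BC12, H4C11 and H4C12 (0.958, 0.939 and 0.917), and 4 genes had r above 0.9. Near-identical copies of these histone genes make single values uncertain.

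The chromosomal surroundings of PLAU differed from the gene itself. Over its 30 nearest expressed neighbours in RefSeq order on chromosome 10, the median deviation from the mean of the 6 clones was 0.13, -0.47 and 0.18 in NCCRP1 clones 1, 6 and 17, compared with 0.04, 0.04 and 0.14 in mock clones 1, 4 and 5. The neighbours were thus lowest in NCCRP1 clone 6, in which PLAU was the second highest of the 6, and 25 of the 30 had a lower mean in NCCRP1 clones. With the neighbours' deviation subtracted, the PLAU difference was 0.59 (SE 0.23, limma adjusted p = 0.581). The 30 neighbours of PLAUR on chromosome 19 deviated by at most 0.08 in any clone and those of PLAT on chromosome 8 by at most 0.06. The PLAUR and PLAT differences after the subtraction were 0.59 and 0.25.

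**Figure D3:**
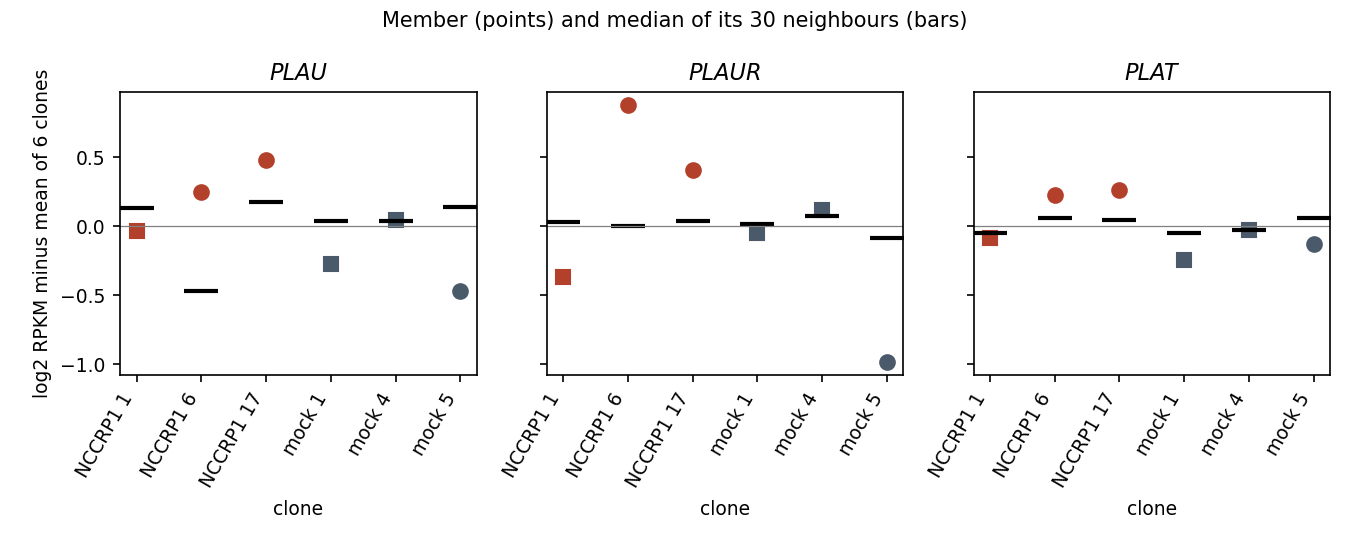
Deviation of log2 RPKM from the mean of 6 clones (y axis) by clone (x axis) for PLAU, PLAUR and PLAT; points are the gene (red NCCRP1, grey mock; circles run 14, squares run 15) and black bars the median of its 30 nearest expressed neighbours. In NCCRP1 clone 6 the PLAU neighbours lie at -0.47 while the gene lies above 0.

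Other genes of the pathway were described from lists chosen for their roles, and none of their tested members passed. The median log2 difference over all 11927 genes above 0 in every library was -0.01, and 47.0% of these had a higher mean in NCCRP1 clones. Among the activators and their zymogens, plasminogen itself (PLG), KLKB1, F11 and HABP2 were listed at 0 in every library. F12, encoding coagulation factor XII, which can activate plasminogen weakly, was at 4.77, 4.07 and 4.23 log2 RPKM in NCCRP1 clones 1, 6 and 17 and at 4.66, 4.55 and 4.31 in mock clones 1, 4 and 5, with overlap (limma adjusted p = 0.953).

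Of 16 receptor and clearance genes, PLAUR among them, 14 were tested and 0 passed. 5 had no overlap with higher values in NCCRP1 clones, and 2 with lower values, against 5.71% and 7.05% of all genes. The 2 lower ones encode endocytic receptors. MRC2, a collagen receptor that associates with the urokinase receptor, was at 3.73, 3.22 and 3.85 log2 RPKM in NCCRP1 clones 1, 6 and 17, compared with 4.65, 4.67 and 4.99 in mock clones 1, 4 and 5. Its difference of -1.17 (SE 0.19) had a limma adjusted p of 0.0535 and was -1.46 within run 14 (3.54 in NCCRP1 clones, 4.99 in the mock clone) and -0.93 within run 15 (3.73 in the NCCRP1 clone, 4.66 in mock clones). LRP1, which clears inhibitor-bound urokinase and its receptor from the surface, was at 2.84, 2.65 and 3.26 in NCCRP1 clones, compared with 3.55, 3.61 and 3.69 in mock clones. Its difference of -0.70 (SE 0.18, limma adjusted p = 0.291) was -0.74 within each run. For both receptors, every NCCRP1 clone lay below every mock clone. ITGB6, an integrin subunit gene and 1 of the 5 higher ones, was at 1.09, 2.48 and 1.74 in NCCRP1 clones and at 0, 0.66 and 0 in mock clones. It met the filter through the NCCRP1 clones, where it is high, and mock clones 1 and 5 hold a listed 0. As for SERPINE2, no test is therefore read from ITGB6, and its place among the 5 is not read either.

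The plasminogen-binding proteins were all expressed, and 5 of 6 were on average higher in the NCCRP1 clones (median difference 0.25 over the 6), although 0 passed. PLGRKT, a membrane-spanning plasminogen receptor, was at 7.86, 7.61 and 7.52 log2 RPKM in NCCRP1 clones 1, 6 and 17, compared with 7.15, 7.26 and 7.43 in mock clones 1, 4 and 5, without overlap (difference 0.38, SE 0.17, limma adjusted p = 0.637). KRT8, whose keratin can bind plasminogen at the cell surface, was at 8.09, 8.31 and 8.31 in NCCRP1 clones and 7.86, 8.02 and 7.64 in mock clones, also without overlap (limma adjusted p = 0.662). Of all tested genes, 5.71% had no overlap in this direction. The annexin A2 complex that gathers plasminogen and tissue-type activator did overlap. ANXA2 was at 6.55, 6.53 and 6.06 in NCCRP1 clones and 6.36, 6.31 and 5.58 in mock clones, and its light chain S100A10 at 6.70, 7.42 and 7.42 in NCCRP1 clones and 6.95, 6.97 and 7.03 in mock clones. ANXA2 and KRT8 have near-identical pseudogenes, so their values are uncertain.

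Proteases that cleave pro-urokinase, and inhibitors of such proteases, had 4 tested genes of 5, all with a higher mean in NCCRP1 clones, and 0 passed. CTSB, the lysosomal cysteine protease cathepsin B, was at 5.93, 6.09 and 6.17 log2 RPKM in NCCRP1 clones 1, 6 and 17, compared with 5.64, 5.79 and 5.36 in mock clones 1, 4 and 5 (difference 0.47, SE 0.15, limma adjusted p = 0.451). ST14, the membrane protease matriptase, was at 5.69, 5.78 and 5.91 in NCCRP1 clones and 5.67, 5.67 and 5.31 in mock clones (limma adjusted p = 0.813). Both were without overlap, as were 5.71% of all tested genes with higher NCCRP1 values. For ST14, NCCRP1 clone 1 and mock clones 1 and 4 differed by little. In run 14 CTSB differed by 0.78 and ST14 by 0.53, and in run 15 CTSB differed by 0.22 and ST14 by 0.03. SPINT1, an inhibitor of matriptase, overlapped, at 5.13, 5.81 and 5.73 in NCCRP1 clones and 5.37, 5.37 and 5.20 in mock clones. Of 14 inhibitor genes, 11 were listed at 0 in every library and 0 of the 3 tested passed. SERPINE2 was 1 of these 3, and no test is read from it. SERPINF2, encoding the plasmin inhibitor alpha 2-antiplasmin, reached 0.28 log2 RPKM in NCCRP1 clone 17 alone, against 0.39, 0.25 and 0.27 in mock clones 1, 4 and 5.

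Among proteins that plasmin or the activators cleave, 4 of 9 genes were tested and 0 passed. PDGFC, a growth factor activated by tissue-type plasminogen activator, was at 2.78, 3.19 and 2.80 log2 RPKM in NCCRP1 clones and 2.70, 2.51 and 3.49 in mock clones. F2RL1, a protease-activated receptor gene, was at 3.83, 4.31 and 4.31 in NCCRP1 clones and 3.85, 4.02 and 4.40 in mock clones. FN1, the fibronectin gene, was listed at 0 in NCCRP1 clone 1 and mock clone 1 and did not exceed 1.51 in any clone. None of the 3 separated the groups.

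SERPINB2 lies in a cluster of clade B serpin genes on chromosome 18, and most of that cluster was listed at 0. Of 10 cluster genes, 6 were listed at 0 in every library, SERPINB3 and SERPINB4 among them. SERPINB13, a serpin of stratified epithelia, was at 2.50, 3.15 and 2.32 log2 RPKM in NCCRP1 clones 1, 6 and 17 and 1.93, 2.20 and 2.32 in mock clones 1, 4 and 5 (difference 0.51, SE 0.23, limma adjusted p = 0.683). SERPINB5, encoding maspin, was at 1.33, 1.39 and 1.67 in NCCRP1 clones and 0.94, 1.56 and 2.11 in mock clones. SERPINB8 did not exceed 0.18 in any library. SERPINB5, SERPINB8 and SERPINB13 had overlapping groups.

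PLAUR has relatives of the Ly6/uPAR domain family nearby on chromosome 19, of which 3 of 6 on the list, PLAUR included, were tested. LYPD3, encoding the squamous surface protein C4.4A, was at 1.48, 1.76 and 1.80 log2 RPKM in NCCRP1 clones 1, 6 and 17, compared with 2.28, 2.11 and 1.81 in mock clones 1, 4 and 5. The groups of LYPD3 did not overlap, as for 7.05% of all tested genes with lower NCCRP1 values. NCCRP1 clone 17 and mock clone 5 differed by little, however (difference of means -0.39, SE 0.21, limma adjusted p = 0.758). LYPD5 was at 2.55, 4.25 and 3.88 in NCCRP1 clones and 3.05, 3.35 and 3.35 in mock clones (limma adjusted p = 0.953). As for PLAUR, NCCRP1 clones 6 and 17 were the highest for LYPD5. NCCRP1 clone 1 lay below every mock clone for LYPD5, but for PLAUR it lay below mock clones 1 and 4 and above mock clone 5.

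**Figure D4:**
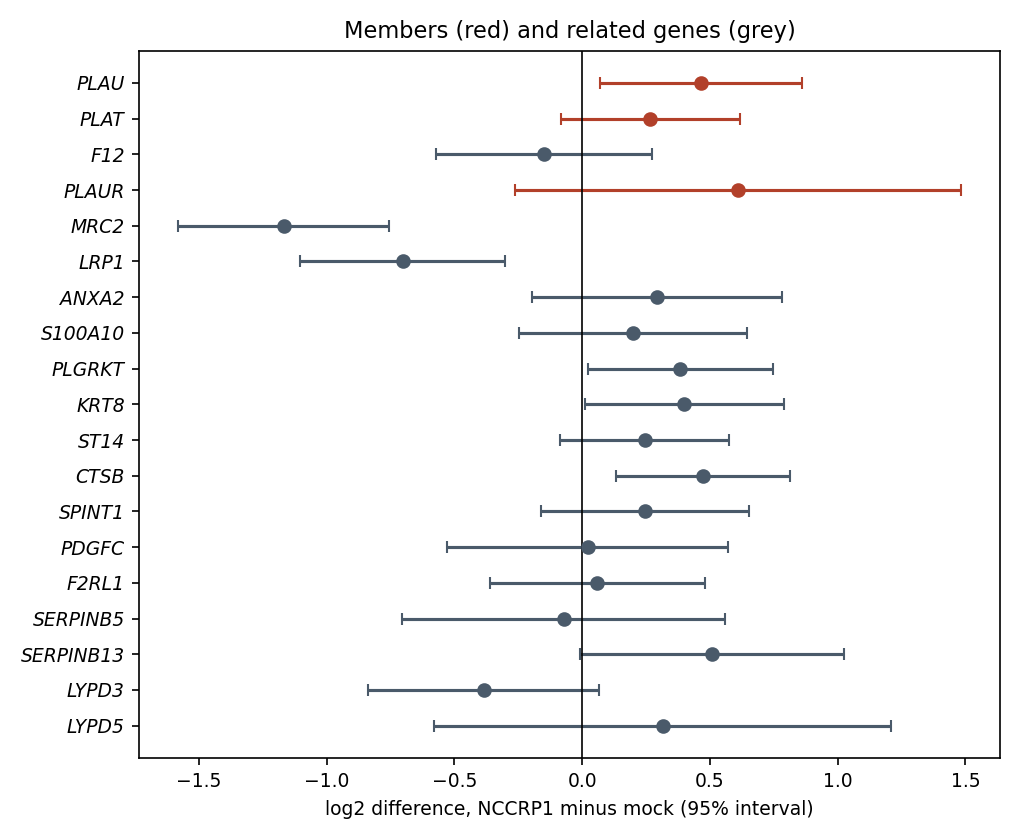
Log2 difference, NCCRP1 minus mock (x axis), with its 95% limma interval for the members (red) and the named pathway genes above 0 in every library (grey, y axis). The interval of PLAU runs from 0.07 to 0.86, those of PLAUR and PLAT cross 0, and MRC2 and LRP1 lie to the left of 0; none of these genes passed after adjustment over all genes.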

How the data were processed

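Per the labels' protocols, DNase-treated total RNA was depleted of ribosomal RNA and made into Ion Total RNA-Seq libraries. The submitters' processing notes name hg19 and bedtools 2.25.0 without roles, with no aligner stated. Each file pairs Entrez gene IDs with an RPKM column, per the file headers. The values the authors deposited there are log2 RPKM: 2 to their power, times exonic length in kilobases (GENCODE v29), summed to 1091849 to 1103169 per library, against at least 10972785 for natural logarithms. RefSeq (GRCh38.p14) named 37997 of 40448 IDs.

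Groups were compared on the deposited log2 scale by limma (version 3.58.1, R 4.3.3; group as the sole term, trended and robust empirical Bayes, two-sided) over genes above 0 in at least 3 of 6 libraries, with Benjamini-Hochberg adjustment over all of them, and tested on simulated data. Exact permutation tests and correlations used scipy 1.17.1. Members and lists were chosen with earlier results of these data known. From each list, up to 3 tested genes with the lowest p were named, with PLG, ANXA2 and S100A10 in any case; 1 of the 3 tested inhibitor genes, which this rule would have named, and 1 of the 3 genes most like PLAU are not reported here.

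Read counts were not used here. Low microRNA values rose in steps that would put depth at 12290000 to 18070000 reads per library, if a step is 1 read. Within 0.005, 23.4% to 33.1% of values under 8 steps were whole, too few to recover counts, and doubled depths gave higher shares, so depth is not fixed by the files. Over the 11927 genes above 0 in every library, pairs of libraries correlated with r between 0.971 and 0.99, and no pair shared an equal value.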

Additional observations from a re-analysis of the deposited data

How the results depend on the processing

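PLAU, PLAUR and PLAT kept their direction and stayed short of the threshold in all 15 alternatives each, at limma adjusted p from 0.336 to 1.000. SERPINE2, which met the filter through the mock clones alone, is read for no test, and it had no value with genes above 0 in all 6 libraries. Its difference was -0.47 as deposited, -1.26 with log2(RPKM + 1) and -3.90 with log2(RPKM + 0.1), which follows from the number put in place of a listed 0. PLAU ranged from 0.34 to 0.60 and PLAT from 0.20 to 0.38 over the alternatives. SERPINB2 has no value to vary.

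Over all genes, limma called 9 higher and 4 lower in NCCRP1 clones. The counts were 2 and 2 with log2(RPKM + 1), 1 and 0 with log2(RPKM + 0.1), 1 and 2 with no filter, 5 and 2 with genes above 0 in all 6 libraries, and 2 and 0 with the sequencing run as a term; with robust=FALSE 2 were higher. Where limma called 0 lower, 448 (log2(RPKM + 0.1)) and 693 (run as a term) genes had an unadjusted p under 0.05 in that direction. Leaving out a clone gave 0 to 24 higher genes, 0 to 5 lower genes and 2483 to 3801 genes without overlap, against 1625 with all clones; both limma counts of 0 came without mock clone 5, where 685 and 678 genes had an unadjusted p under 0.05. With a clone left out, 1 group holds only 2 clones and groups separate more readily, so those counts without overlap are not comparable with 1625. The cause of the shifts in the limma counts was not tested. No paired analysis was possible, because the clones were selected separately and their numbers pair nothing between the groups. Levels of SERPINE2 and SERPINB2 under 1 RPKM cannot be read, since they are listed as 0.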
